A study of Homo sapiens with 4 samples.

Results

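The AP-1 and EGR1 immediate early factors comprised 10 genes, taken by symbol: the Fos family genes FOS, FOSB, FOSL1 and FOSL2, the Jun family genes JUN, JUNB and JUND, and EGR1, ATF3 and IER2. All 10 were found among the 18417 genes of the array, each on 1 transcript cluster, the set of probes that the array design assigns to a transcript. They were measured in MDA-MB-468, an established breast cancer cell line of the basal-like, hormone receptor-negative kind that carries an endogenous mutant p53. Cells of the p53si-1 group were transduced with a lentiviral shRNA against p53, and cells of the NS group with a non-targeting lentiviral shRNA, with 2 arrays in each group. All 4 samples therefore came from 1 line, all carried a lentiviral shRNA, and knockdown rested on a single p53 shRNA. The level of p53 RNA was not analysed here, so the extent of the knockdown is not given.

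Immediate early genes are transcribed within minutes of a growth factor, serum or stress signal and need no new protein synthesis for it. Signals through MAP kinases act on ready-made factors such as SRF with its Elk partners, CREB and ATF2. Fos proteins pair with Jun proteins to form AP-1, which binds the TPA response element, while EGR1 is a zinc finger factor of GC-rich sites. Their RNAs carry decay signals and are short-lived, which keeps each induction brief. Mutant p53 has been described elsewhere as an activator of EGR1 and a repressor of ATF3, which makes these genes a question for a comparison of p53si-1 with NS.

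Some short stretches of the members' promoters are shown that match, as letters, elements bound by SRF, CREB, ATF or AP-1 proteins. Whether these stretches act in these cells was not tested. RefSeq promoters of GRCh38.p14, each from 250 bases before to 50 bases after the transcript start, were used. They were found for 9 of the 10 members, all but FOSL1, with 2 for ATF3. Each 30-base window is written 5′ to 3′ on the strand of the gene, with the motif in capitals.
EGR1, CArG box, chr5:138465364-138465393, plus strand: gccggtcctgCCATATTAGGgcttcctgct
EGR1, CArG box, chr5:138465386-138465415, plus strand: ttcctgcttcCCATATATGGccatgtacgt
FOS, TGACGT, chr14:75278752-75278781, plus strand: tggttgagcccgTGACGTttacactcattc
FOSB, TGACGT, chr19:45467924-45467953, plus strand: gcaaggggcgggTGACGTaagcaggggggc
JUN, TGACATCA, chr1:58784096-58784125, minus strand: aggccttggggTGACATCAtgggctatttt
ATF3, TGACATCA, chr1:212565273-212565302, plus strand: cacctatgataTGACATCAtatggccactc
FOSL2, TGACTCA, chr2:28392850-28392879, plus strand: gtgccattgtagTGACTCAtctcgggcaga

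The motifs were searched on both strands as plain letters. The CArG box, which SRF binds, was present in the searched stretch of EGR1 alone among the members and in 1.29% of all 35116 promoters. Sites more than 250 bases before the start were not searched, nor was FOSL1. No match here therefore does not mean that FOS or another member lacks the element. TGACGT, the core that CREB and ATF proteins bind, was present in EGR1, FOS, FOSB, FOSL2 and JUND and in 7.98% of all promoters. TGACATCA differs from the TPA response element by 1 inserted base and is bound by Jun-ATF pairs. It was present in JUN, in 1 of the promoters of ATF3 and in 2.61% of promoters. TGACTCA, the TPA response element bound by AP-1, was present in FOSL2 and in 4.95%, and GCGNGGGCG, a form of the EGR1 site, in EGR1 and in 9.43%. None of these motifs contains another and no matches of different motifs overlapped in the members, while TGACGT matches both strands where it is followed by CA, as in JUND. A match is a description of letters, not of binding.

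After RMA, which makes the distributions of the arrays alike, their medians over all transcript clusters lay between 5.66 and 5.69 on the log2 scale. Of the epithelial markers listed for basal-like cells, 11 of 15 were measured at mean log2 signals from 7.16 to 12.42, with EPCAM, KRT8, KRT18 and KRT19 at the top. The keratins KRT14 and KRT16 lay nearer the middle of the array, at signal percentiles 58.4 and 58.5. Whether the list tells basal-like from other epithelial cells was not tested. The basal keratin KRT5 was at 9.85 and 9.80 in p53si-1 cells, against 10.36 and 10.12 in NS cells (-0.41, adjusted p 0.216 in limma), and CDH3 differed by -0.20. ESR1 and PGR, which define hormone receptor-positive cells, were dim on every array (log2 signal 3.89 to 4.62). They belong to a list of 5 markers expected to be low in basal-like lines. The rest of that list was brighter on average, with GREB1 at 4.58 to 4.81 and TFF1 at 5.35 to 5.53. ERBB2, at 7.28 to 7.75, lay above the median of all genes, 6.59. Of the leukocyte, fibroblast and endothelial markers, PTPRC stayed between 3.01 and 3.14, while CD14 (9.69 to 9.92) and KDR (8.36 to 9.18) were bright on all 4 arrays. The summed linear signal of the 14 measured genes of that list was 1860 and 1830 on the p53si-1 arrays and 1785 and 1735 on the NS arrays, with KDR differing by 0.50 on the log2 scale, and the part of this in the results was not tested. The control genes GAPDH, ACTB and B2M differed between p53si-1 and NS by -0.09, -0.07 and 0.05 on the log2 scale, and TBP by 0.19 without overlap (9.02 and 8.91, against 8.81 and 8.75), which is as large as several of the differences given below for the factors. Fewer cells with a transcript and less of it per cell cannot be told apart in these bulk RNAs.

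None of the 10 factors passed an adjusted p of 0.05 or a 1.5-fold difference of group means when p53si-1 was set against NS. The adjusted p-values (limma, Benjamini-Hochberg over all genes) ran from 0.228 for FOSL1 to 0.997 for FOSB. Across the array 0.0326% of genes were higher and 0.076% lower at an adjusted p under 0.05. The fold criterion, 0.585 on the log2 scale, was passed upward by 0.271% and downward by 0.652% of genes. With 2 arrays a group an exact two-sided permutation test of a single gene cannot give a p under 0.333.

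**Figure D1:**
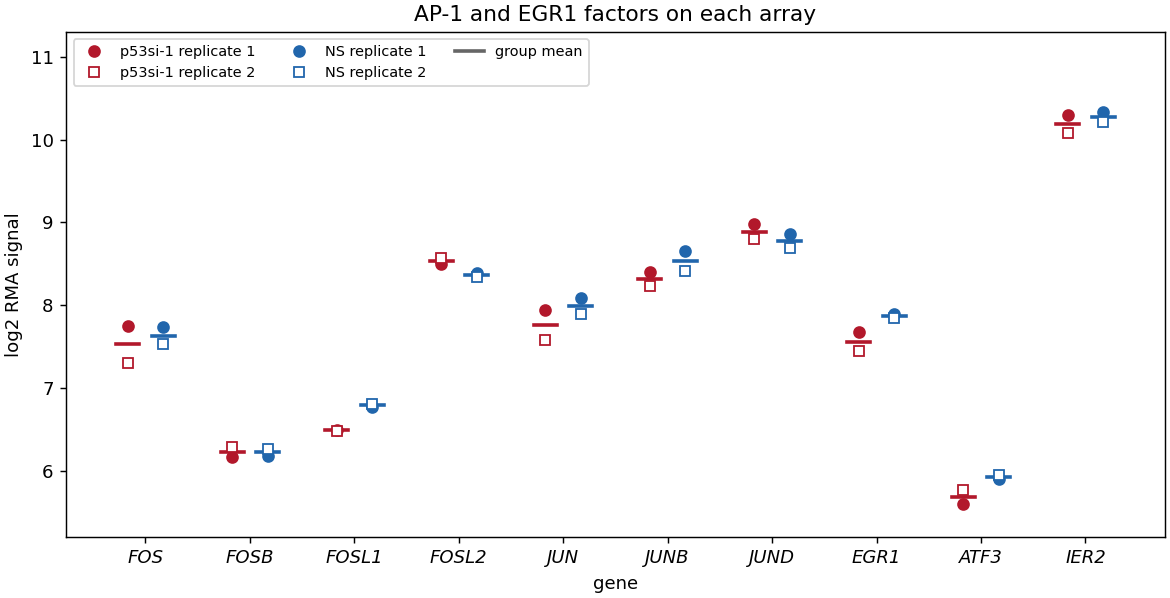
Log2 RMA signal (vertical axis) of each of the 10 factors on each array, with p53si-1 in red left of NS in blue, filled circles for replicate 1, open squares for replicate 2 and a line at the group mean. EGR1, ATF3, FOSL1 and, by a narrow margin, JUNB lay lower on both p53si-1 arrays than on both NS arrays, and FOSL2 lay higher. Heights of different genes depend on their probes and are not comparable.

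EGR1, which responds to growth factors through the Ras-ERK pathway, had a log2 signal of 7.68 and 7.44 on the p53si-1 arrays, against 7.89 and 7.85 on the NS arrays. Both p53si-1 arrays were below both NS arrays. The difference of -0.31 ± 0.10 (SE, n = 2 each) corresponds to a ratio of 0.81, with a 95% interval on the log2 scale from -0.57 to -0.06 and an adjusted p of 0.321. It stood at percentile 4.1 of the differences of all genes.

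FOSL1 encodes Fra-1, a Fos protein prominent in basal-like and mesenchymal breast cancer cells. Its log2 signal was 6.49 and 6.48 in p53si-1 cells, against 6.77 and 6.81 in NS cells. The replicates were close to each other within each group and the groups were apart. The difference was -0.30 ± 0.08 (SE, n = 2 each), a ratio of 0.81, with an interval from -0.50 to -0.11 and an adjusted p of 0.228, the lowest of the 10.

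ATF3, a stress-induced factor of the ATF/CREB family that pairs with Jun proteins, had signals of 5.60 and 5.76 in p53si-1 cells, against 5.90 and 5.95 in NS cells. It too was lower on both p53si-1 arrays. The difference was -0.24 ± 0.09 (SE, n = 2 each), with an interval from -0.47 to -0.02 and an adjusted p of 0.376. With ATF3 and FOSB the mean signal over the arrays lay under the median of all genes, 6.59, and RMA shrinks differences of dim probe sets toward 0.

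FOSL2, which encodes Fra-2, was the one factor higher on both p53si-1 arrays. Its signals were 8.50 and 8.57 in p53si-1 cells, against 8.39 and 8.34 in NS cells. The difference was 0.17 ± 0.08 (SE, n = 2 each), with an interval from -0.03 to 0.37 and an adjusted p of 0.48. FOSL1 and FOSL2, close relatives without the strong activation domains of FOS, thus lay on opposite sides of 0, although neither passed the threshold and the contrast between them was not tested.

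The founding member FOS, whose product is the short-lived partner of JUN, had signals of 7.75 and 7.30 in p53si-1 cells, against 7.73 and 7.53 in NS cells. The groups overlapped, because p53si-1 replicate 1 was above both NS arrays and p53si-1 replicate 2 below both. Between arrays of the same number, replicate 1 differed by 0.01 and replicate 2 by -0.22. The difference was -0.10 ± 0.16 (SE, n = 2 each), with an interval from -0.49 to 0.28. Without p53si-1 replicate 2 it was 0.12.

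FOSB, which in many tissues is induced together with FOS, gave 6.17 and 6.28 in p53si-1 cells, against 6.18 and 6.26 in NS cells. Its group means were equal to the second decimal, and its 95% interval, -0.21 to 0.21, was one of the narrower ones.

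Among the Jun proteins, JUN, the main transactivating partner in AP-1, had signals of 7.94 and 7.58 in p53si-1 cells, against 8.09 and 7.89 in NS cells. The groups overlapped, since p53si-1 replicate 1 was above NS replicate 2. The difference was -0.23 ± 0.14 (SE, n = 2 each), with the widest reach downward of the Jun genes, from -0.57 to 0.10.

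JUNB, a weaker activator that can restrain JUN, gave 8.40 and 8.23 in p53si-1 cells, against 8.65 and 8.41 in NS cells. The groups did not overlap, but the higher p53si-1 array nearly touched the lower NS array. The difference was -0.21 ± 0.12 (SE, n = 2 each), with an interval from -0.49 to 0.07 and an adjusted p of 0.527.

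JUND, the Jun protein with the most constant expression in most cells, ran the other way in sign, with 8.98 and 8.80 in p53si-1 cells, against 8.86 and 8.69 in NS cells. The groups overlapped, and the difference of 0.11 ± 0.10 (SE, n = 2 each) had an interval from -0.14 to 0.37. IER2, a nuclear immediate early protein outside the AP-1 family, gave 10.30 and 10.08 in p53si-1 cells, against 10.33 and 10.21 in NS cells. It overlapped as well, with a difference of -0.08 ± 0.11 (SE, n = 2 each) and an interval from -0.34 to 0.18.

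Read together, 7 of the 10 factors had a lower and 3 a higher or equal mean with p53si-1. Of all 18417 genes, 9689 had a lower and 8727 a higher mean. The differences of the 10 factors ran from -0.31 to 0.17. Their median difference was -0.16, beside -0.009 over all genes tested. It moved with single arrays and was -0.05 without p53si-1 replicate 2, -0.06 without NS replicate 1 and -0.24 without p53si-1 replicate 1. FOSL1, JUNB, EGR1 and ATF3, 4 of the 10, had both p53si-1 arrays below both NS arrays, as did 22.6% of all genes, and 1 of the 10, FOSL2, had both above, as did 19.9%. An unadjusted p under 0.05 was reached by FOSL1, EGR1 and ATF3 in the lower direction and by none of the 10 in the higher direction, beside 6.8% and 5.45% of all genes. All 10 intervals lay within 1.5-fold either way, as did 91.9% of all genes. That holds gene by gene and for differences on this log2 RMA scale.

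**Figure D2:**
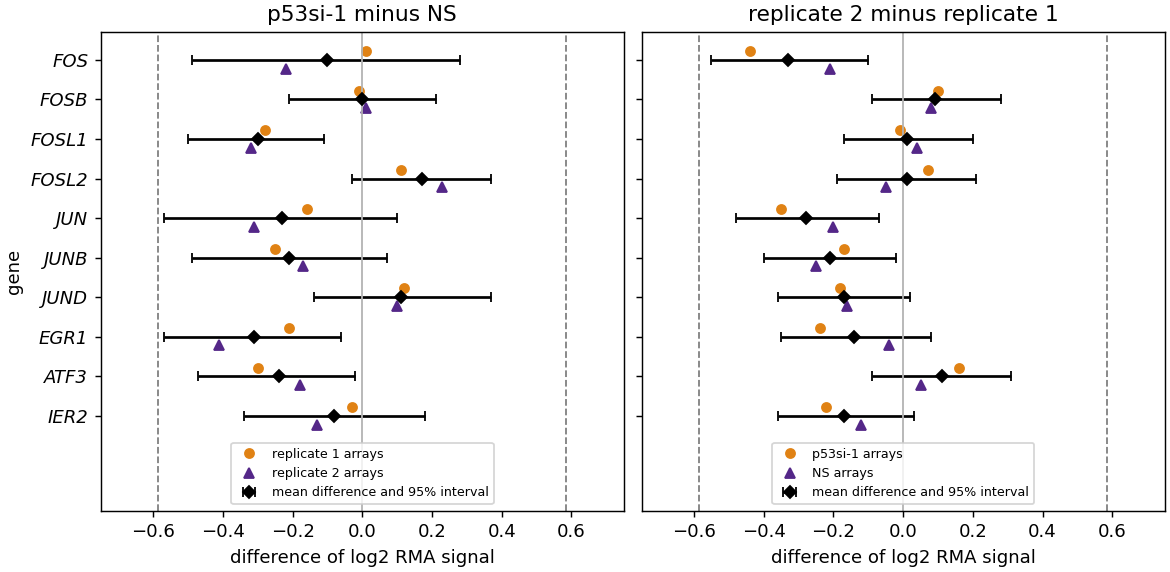
Differences of log2 RMA signal (horizontal axis) for each factor. The left panel gives p53si-1 minus NS and the right panel replicate 2 minus replicate 1, with diamonds for the mean difference, bars for its 95% interval, circles and triangles for the values within each replicate number (left) or each group (right), and dashed lines at 1.5-fold. All intervals on both sides lie inside the dashed lines, and FOS, JUN, JUNB, JUND, EGR1 and IER2 have both right-hand values below 0.

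The replicate number was associated with differences of similar size. FOS was lower in replicate 2 than in replicate 1 by 0.44 on the log2 scale among p53si-1 arrays and by 0.21 among NS arrays. The mean difference of -0.33 ± 0.09 (SE) had an interval from -0.55 to -0.10, an unadjusted p of 0.0139 and an adjusted p of 0.373 in limma with group as a term. It was larger in size than the difference of FOS between p53si-1 and NS.

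JUN differed in the same direction, by -0.35 in p53si-1 cells and -0.20 in NS cells, and JUNB by -0.17 and -0.25. Their mean differences were -0.28 (interval -0.48 to -0.07) and -0.21 (interval -0.40 to -0.02). JUND, at -0.18 in p53si-1 cells and -0.16 in NS cells, was the most even of the 10 between groups among those that were lower. IER2 differed by -0.22 in p53si-1 and -0.12 in NS cells, and EGR1 by -0.24 and -0.04.

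In all, 6 of the 10 factors were lower in replicate 2 in both groups, as were 32% of all genes, and 5 of the 10 were lower by over 0.1 in both, as were 11.9%. FOSB and ATF3 were higher in replicate 2 in both groups, by 0.09 and 0.11 on average, and FOSL1 and FOSL2 differed by 0.01 each, with opposite signs in p53si-1 and NS cells. An unadjusted p under 0.05 in the lower direction was reached by FOS, JUN and JUNB, beside 6.86% of all genes. No gene on the array passed an adjusted p of 0.05 for the replicate number (0%) in limma, where 11.1% had an unadjusted p under 0.05, and 0.179% of genes but none of the 10 were lower by over 1.5-fold. With an intensity trend in the prior variance, 237 genes passed for the replicate number and none of the 10 did, with 0.112 as the lowest adjusted p among them, for FOS.

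For 5 of the 10 factors the replicate difference was larger in size than the difference between p53si-1 and NS. What the 2 replicate numbers had in common, such as a culture, a day or a hybridisation, is not given in the sources used here, and its part in these differences was not tested.

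**Figure D3:**
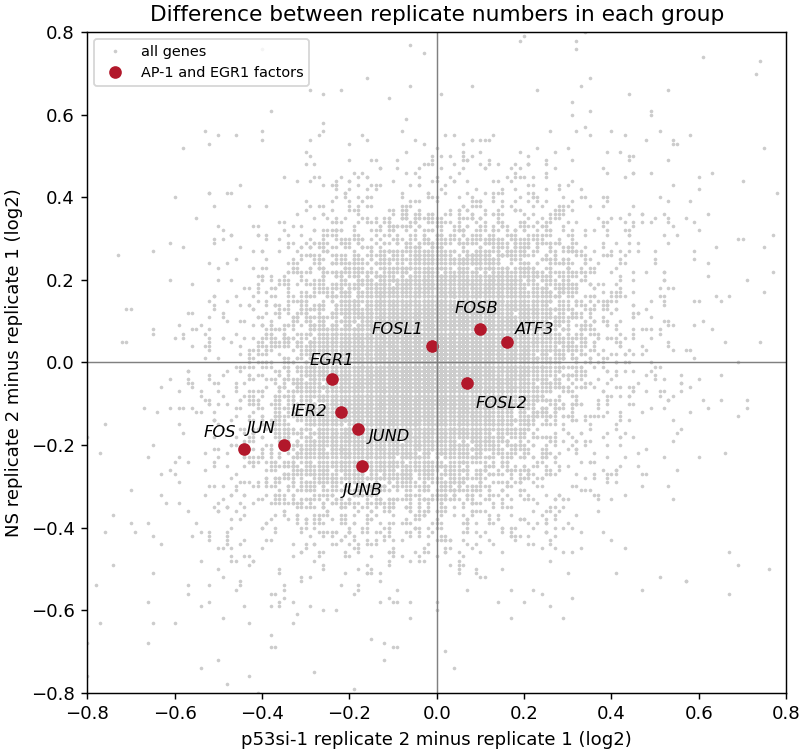
Replicate 2 minus replicate 1 on the log2 scale among p53si-1 arrays (horizontal axis) and among NS arrays (vertical axis) for the 10 factors in red and all genes in grey. FOS, JUN, JUNB, JUND, IER2 and EGR1 lie in the lower left, and 46 of the 18417 genes lie outside the axes, which end at 0.8.

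The genes around AP-1 and EGR1 were described from lists by role, and some genes stand in more than 1 list. The lists were chosen with earlier results of these data known. Over all 18417 genes, 9689 had a lower and 8727 a higher mean in p53si-1 cells. Of the upstream kinases and regulators, 17 of 24 were measured, 13 with a lower and 4 with a higher mean in p53si-1 cells (median -0.12), and none passed an adjusted p of 0.05. MAPK8, which encodes the kinase JNK1 that phosphorylates Jun, had 7.60 and 7.80 in p53si-1 cells, against 8.13 and 8.43 in NS cells. This difference of -0.58 was just under 1.5-fold, with an adjusted p of 0.175. RPS6KA5, a kinase of histone H3 and CREB, differed by 0.32, but its groups overlapped. Between arrays of the same number RPS6KA5 differed by -0.12 for replicate 1 and by 0.76 for replicate 2. HRAS differed by -0.19 and RPS6KA3 by -0.16, both without overlap.

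SRF, which binds the CArG box, had 8.19 and 8.21 in p53si-1 cells, against 8.43 and 8.45 in NS cells, without overlap (-0.24, adjusted p 0.321). Of the 6 measured genes of SRF and its cofactors, 5 had a lower mean, beside 9689 of all 18417 genes. MYOCD was at -0.14 but dim on every array (log2 signal 4.01 to 4.25). ELK1 was at -0.13 and ELK3, with groups that overlapped, at -0.11. The corepressors that bind EGR1, NAB1 and NAB2, differed by 0.00 and -0.05.

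Among other leucine zipper factors of the ATF, CREB, Maf and related groups, some of which can pair with Fos or Jun, 9 of 22 had a lower and 13 a higher mean (median 0.01), and none passed the test. MAFG, a small Maf protein without an activation domain, differed by 0.48 (adjusted p 0.279 in limma), CREM by 0.25 and CREB1 by -0.21. NFE2 also differed by 0.25, but its groups overlapped. The other immediate early transcription factors, 18 genes, had a median of -0.03, with 10 lower and 8 higher means and none past the test. KLF6 was lower on both p53si-1 arrays, at 7.38 and 7.13, against 7.62 and 7.54 in NS cells (-0.33, adjusted p 0.318 in limma). CSRNP1 followed at -0.19, also without overlap. SNAI1 at -0.18 and NR4A2 at 0.18 had groups that overlapped.

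Of the 27 measured feedback and RNA decay genes of the immediate early response, 17 had a lower and 10 a higher mean (median -0.09), and 1 passed an adjusted p of 0.05. RGS2, a regulator that switches off G protein signalling, rose to 9.70 and 9.80 in p53si-1 cells, against 8.27 and 8.21 in NS cells (1.51 ± 0.09, SE, adjusted p 0.0291). That call was lost without p53si-1 replicate 1 (adjusted p 0.154), without p53si-1 replicate 2 (0.223) or without NS replicate 2 (0.0571), while the difference stayed between 1.46 and 1.56. PLK2, a kinase of the stress response, differed by 0.44, and the secreted matrix proteins CCN1 and CCN2 by -0.53 and -0.47, with adjusted p-values of 0.172, 0.318 and 0.101.

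Genes reported elsewhere as AP-1 targets, 26 measured of 30, had 18 lower and 8 higher means (median -0.07), and none passed the test. Their mean log2 signals ran from 3.17 to 11.96. MMP1, MMP3, MMP9, MMP10, MMP13, IL6, EREG, SPP1, PTGS2 and DCN were dim, under 5 on every array. HBEGF, an EGFR ligand, had 5.27 and 5.33 in p53si-1 cells, against 5.67 and 5.68 in NS cells (-0.38), and PLAU, the urokinase gene, differed by -0.39. CXCL8 and FN1 differed by -0.43 and -0.41, with groups that overlapped. Cyclin D1, CCND1, another such target and one named here after its value was seen, differed by -0.10, with groups that overlapped.

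Genes reported as EGR1 targets, 13 measured of 16, had 11 lower and 2 higher means and a median of -0.20. This list, too, was chosen with earlier results of these data known, so its split is a description and not independent of them. Over all 18417 genes, 9689 had a lower and 8727 a higher mean. TGFB1, FN1 and CD44 of this list are also in the AP-1 target list, and NAB2 is also listed as a corepressor. THBS1, which encodes the matrix protein thrombospondin-1, fell to 7.55 and 7.73 in p53si-1 cells, against 8.62 and 8.77 in NS cells (-1.06 ± 0.10, SE, adjusted p 0.0484). The call for THBS1 was lost when any one array was left out, with adjusted p-values from 0.0652 to 0.223, while its difference stayed between -1.15 and -0.97. ICAM1, an adhesion molecule that NF-κB also drives, had 9.11 and 9.18 in p53si-1 cells, against 10.00 and 10.37 in NS cells (-1.04, adjusted p 0.0638 in limma). TNF and HPSE differed by -0.51 and -0.43. The groups overlapped for TNF, with 5.91 and 6.45 in p53si-1 cells, against 6.41 and 6.96 in NS cells.

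The ATF4-ATF3 branch of the stress response, 14 genes, had 9 lower and 5 higher means (median -0.04) and none past the test. SLC7A11, the cystine transporter, had 7.35 and 7.88 in p53si-1 cells, against 8.08 and 8.37 in NS cells (-0.61, adjusted p 0.289). VLDLR differed by 0.21. CEBPB differed by -0.13 and TRIB3, a pseudokinase induced by ATF4, by -0.12, both with groups that overlapped.

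**Figure D4:**
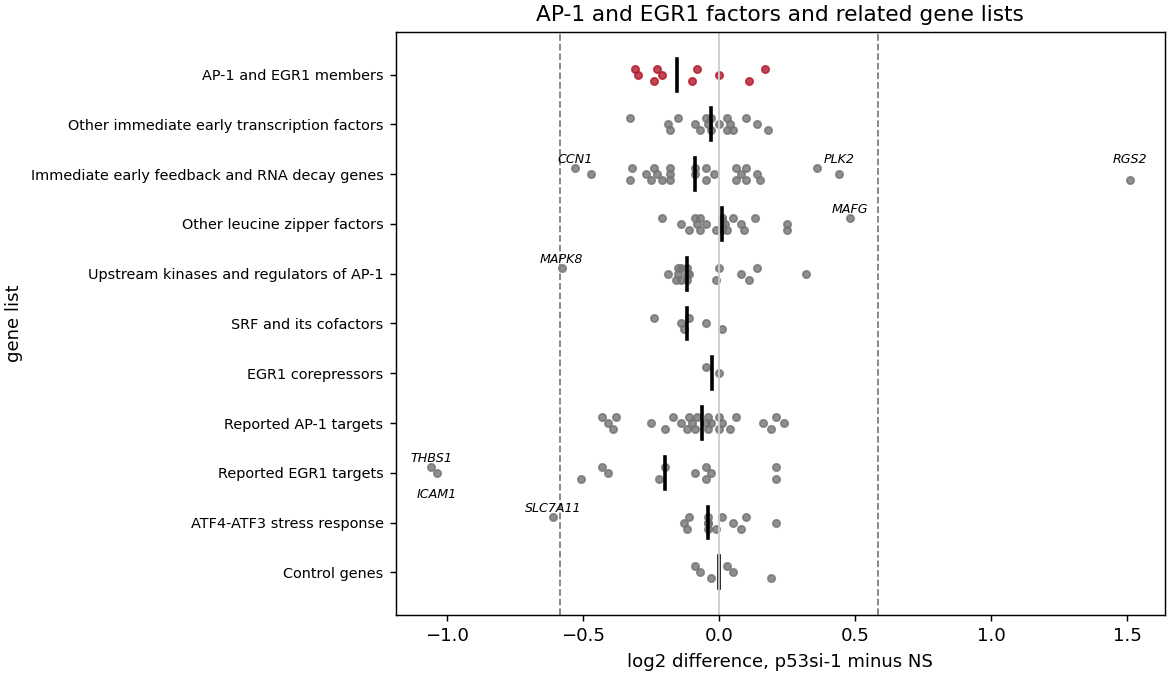
Log2 difference, p53si-1 minus NS (horizontal axis), of each measured gene by list, with the 10 factors in red on top, a black bar at each median and dashed lines at 1.5-fold. RGS2, THBS1, ICAM1 and SLC7A11 lie outside the dashed lines and every one of the 10 factors lies inside.

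EGR1, FOS and ATF3 spanned a narrow range over all 4 arrays, 0.45 for EGR1, 0.44 for FOS and 0.35 for ATF3 on the log2 scale. These ranges are under 1.5-fold, and no genes were therefore ranked by likeness to them.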

How the data were processed

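RNA of 4 MDA-MB-468 cultures, 2 transduced with p53si-1 and 2 with NS, was hybridised to 1 Affymetrix Human Gene ST array each. The deposited values are log2 signals that the authors made from the scanned arrays; per the submitters' processing notes they used RMA, Affymetrix Expression Console and GCOS, with versions not given in the sources used here. The log2 scale was judged from their range, which ends at 14.3. RMA makes the distributions of the arrays alike, so a shift of most transcripts would be removed, and it pulls differences of dim probe sets toward 0.

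No further normalization was applied. Of 33297 transcript clusters, 19460 name 1 symbol in the platform annotation, and the cluster with the highest mean log2 signal stood for a gene, which left 18417 genes. Tests were made across genes in R 4.3.3 with the package limma 3.58.1 (eBayes after lmFit, with 2 degrees of freedom left by the fit and 4.20 from the prior), Benjamini-Hochberg adjusted over all genes. The replicate difference was fitted with group as a term (1 residual degree of freedom). The fit of p53si-1 against NS was tried on simulated data with noise independent between arrays. No replicate difference was placed in them, and the motif search was not simulated. The replicates are described as independent experiments, but nothing says that a number is shared between groups. Same-numbered arrays deviated together (correlation 0.24 across genes), and with only 2 pairs they were not treated as paired.

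The members and lists were chosen with earlier results of these data known. Named genes are the 10 members, up to 4 measured genes of each list with the largest difference, any at an adjusted p under 0.05, and GAPDH, B2M and ACTB; genes outside this rule are described as such or serve as cell markers. Alternatives changed normalization, centring, prior variance, dim-gene filter, cluster choice, fold criterion and replicate block, or left out each array. The number of arrays limits the precision.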

Additional observations from a re-analysis of the deposited data

How the results depend on the processing

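The 10 factors gave 0 calls at an adjusted p under 0.05 and 0 past the fold criterion under each alternative run. FOSL1, JUN, JUNB, EGR1 and ATF3 kept a lower mean and FOSL2 and JUND a higher mean under all 12 alternatives, with FOSL1 between -0.32 and -0.28, EGR1 between -0.43 and -0.19, ATF3 between -0.32 and -0.16, JUN between -0.41 and -0.06, JUNB between -0.34 and -0.09, FOSL2 between 0.13 and 0.20, and JUND between 0.02 and 0.20. One array moved EGR1, JUN, JUNB and JUND by over 1.5 times: without p53si-1 replicate 2, EGR1 was -0.19 and JUN -0.06, without NS replicate 1 JUNB was -0.09, and without p53si-1 replicate 1 JUND was 0.02. Without p53si-1 replicate 2, FOS turned to 0.12, FOSB to -0.05 and IER2 to 0.03, and without NS replicate 1 FOSB turned to -0.04. Leaving out each array gave -0.33 to 0.12 for FOS, -0.05 to 0.05 for FOSB and -0.19 to 0.03 for IER2. The replicate difference of FOSL2 turned to -0.0048 after quantile normalization. The cause was not tested in any of these.

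Of all genes, 20 passed an adjusted p of 0.05. This count was 100 with a minimum mean signal of 5, 55 with median centring, 149 with an intensity trend in the prior, 4 with a robust prior, 4 with clusters naming several symbols counted, 12 with the replicate block, and 0 to 1 without each array. With the replicate block FOSL1, EGR1 and ATF3 still missed the threshold. Genes over 1.5-fold were 50 higher and 120 lower, 61 to 110 and 133 to 185 without each array, 267 and 471 at 1.3-fold, and 9 and 13 at 2-fold. Of the genes in the other lists, 1 was higher and 3 were lower by 1.5-fold, with 1 to 2 and 3 to 8 without each array (7 lower without p53si-1 replicate 2 and 8 without NS replicate 1) and 3 and 11 at 1.3-fold. There, 2 genes passed the adjusted p, 3 with a minimum mean signal of 5, with median centring or with an intensity trend, 1 with a robust prior, 1 with several symbols counted (THBS1 was lost in both) and 0 to 1 without each array. For the replicate number, 237 genes passed with an intensity trend, against 0, and 47 genes past 1.5-fold became 133 within p53si-1 arrays and 105 within NS arrays.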

Other observations

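The replicate number separated some reported targets of AP-1 and EGR1 more than it did the factors, in both directions. These genes were chosen after their values were seen. CXCL8, the neutrophil chemokine interleukin-8, was higher in replicate 2 than in replicate 1 by 0.94 among p53si-1 arrays and by 0.65 among NS arrays, and its mean difference of 0.80 (interval 0.55 to 1.04, limma adjusted p 0.274) was at percentile 99.98 of all genes. TNF was higher in replicate 2 by 0.54 in each group (adjusted p 0.302). FN1, which encodes fibronectin, and TGFB1, a growth factor, ran the other way, with mean differences of -0.55 and -0.45 (adjusted p-values 0.333 and 0.311), as did FOS, JUN and JUNB. None of these passed an adjusted p of 0.05.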
